A study of Rattus norvegicus with 48 samples.

Results

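Transcripts of the annexin family were followed in freshly sorted cerebral endothelial cells (CECs) of the rat during a fast. The 8 annexins described, Anxa1, Anxa2, Anxa3, Anxa4, Anxa5, Anxa6, Anxa7 and Anxa11, form a fixed list of symbols, and all 8 had reads in every sample. They are 8 of the 13050 features tested, out of 32624 features in the count tables. The list was chosen by the level of Anxa1, which was lower in the samples taken after 2 days without food than in fed rats. The difference between 2 days of fast and feeding is therefore a description for Anxa1 and was given no test, and the question put to the data was whether the other 7 annexins followed it. Anxa9 is not on the list but could be matched to an identifier, and its values are given beside the members. Anxa8, Anxa10 and Anxa13 were not analysed here.

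The cells came from the cerebral cortex of male Wistar-Han rats. AL rats had free access to food, and F1, F2 and F3 rats had fasted for 1, 2 or 3 days, with water available to every group. Every group was anesthetized with diazepam and ketamine and perfused with heparinized buffer before the cortex was taken. Cortices were pooled, microglia carrying CD11b were removed and cells carrying CD31 were retained, so that each sample is a pool of animals. The sort did not separate arterial, capillary and venous cells. Each group has 3 samples from independent isolations, named i, j and k, and each sample is the sum of 4 technical replicates, with 20718644 to 25960874 reads assigned to genes.

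Annexins are cytosolic proteins that bind acidic phospholipids, chiefly on the inner face of the plasma membrane and on endosomes, when calcium rises. A conserved core of repeats carries the calcium sites and a variable N-terminal tail carries the binding sites for partners such as S100 proteins. Anxa1 is the member best known in inflammation, since glucocorticoids induce it in many cells and its secreted form acts on formyl peptide receptors to limit leukocyte entry. In brain endothelium it has also been linked to the integrity of the blood-brain barrier.

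The sequences upstream of Anxa1 and Anxa3 are shown first, because these listed members were called in opposite directions at F1 and F3. RefSeq's promoter table, on the GRCr8 assembly, held 7 of the 8 listed annexins, all but Anxa6. The counts themselves were made on Rnor_6.0, and no coordinate was carried from one assembly to the other. The 250 bases before the start of Anxa1, on the minus strand of chr1:227303733-227303982, carry a TATA box match (TATAAA, in capitals) that begins 46 bases before the start. The same stretch of Anxa3, on the minus strand of chr14:13085598-13085847, carries 3 GC box matches (GGGCGG, in capitals), which begin 203, 146 and 44 bases before the start.
Anxa1: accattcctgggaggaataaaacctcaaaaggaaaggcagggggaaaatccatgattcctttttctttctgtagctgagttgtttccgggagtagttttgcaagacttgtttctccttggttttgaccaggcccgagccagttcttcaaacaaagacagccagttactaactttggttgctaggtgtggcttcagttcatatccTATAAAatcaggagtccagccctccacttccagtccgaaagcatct
Anxa3: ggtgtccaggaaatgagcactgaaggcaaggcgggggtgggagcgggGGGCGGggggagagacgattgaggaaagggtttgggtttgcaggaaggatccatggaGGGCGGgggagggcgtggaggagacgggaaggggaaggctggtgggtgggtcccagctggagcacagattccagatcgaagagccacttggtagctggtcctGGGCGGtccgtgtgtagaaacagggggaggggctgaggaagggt
Both strands were searched, and in both genes the matches lie on the strand printed. Of 33469 promoters of this length in the table, 12.9% hold TATAAA and 30.5% hold GGGCGG. The Anxa1 stretch has 45.2% G and C, against 64.0% in Anxa3. The half-site AGAACA of the glucocorticoid receptor, present in 17.5% of promoters, was not found among these letters in either gene. Among the other members with a promoter, TATAAA was found in Anxa2 and GGGCGG in Anxa2, Anxa4, Anxa5 and Anxa11. Anxa6 could not be searched. These matches describe letters only, and no binding was measured.

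Anxa1 was lower in the fasted rats on every day. The values below are normalized counts, that is, reads divided by the library size scaled by the trimmed mean of M-values (TMM) and multiplied by the mean of these sizes, so that they compare samples for 1 gene but not genes of different length. In AL rats, Anxa1 stood at 512, 534 and 590 normalized counts in samples i, j and k. It stood at 394, 366 and 364 at F1, at 354, 368 and 418 at F2, and at 347, 339 and 287 at F3. All 9 fasted samples lay below all 3 AL samples. That separation is a description, because the AL and F2 samples took part in the choice of Anxa1. The F3 samples lay below every F1 and F2 sample. Group means were 545 ± 40.4 in AL, 375 ± 17.0 at F1, 380 ± 33.8 at F2 and 324 ± 32.7 at F3 (SD, n = 3). These values rest on 289 to 556 reads a sample.

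On the log2 scale, the fold change (LFC) of Anxa1 was -0.54 (SE 0.10) at F1, and the level fell by 31.2% relative to AL, with an adjusted p of 0.00684 in edgeR's quasi-likelihood test. At F3 it was -0.75 (SE 0.10), and the level fell by 40.4%, with an adjusted p of 0.000396. Both comparisons share their AL samples with the F2 comparison on which Anxa1 was chosen, and are not independent of it. They passed the threshold of 0.05 under all 23 processing alternatives, which draw on the same AL samples and so add no independent support. The LFC at F2 was -0.52 (SE 0.10), as a description. Across all features tested, 6.56% were called at F1 (3.87% higher and 2.69% lower), 0.858% at F2 (0.490% higher and 0.368% lower) and 12.05% at F3 (6.28% higher and 5.77% lower). Groups that did not overlap AL were found for 28.7% of features at F1, 15.5% at F2 and 35.6% at F3. The F2 samples took part in the choice of Anxa1, so that its LFCs of 0.02 for F2 against F1 and -0.23 for F3 against F2 are also descriptions, with no test. F3 against F1, which uses neither AL nor F2 samples, gave an LFC of -0.21 that did not pass the test (adjusted p 0.996, 95% interval -0.43 to 0.01), in a comparison in which edgeR called 0.00% of all features, 579 had an unadjusted p under 0.05 and DESeq2 called 24. In bulk samples, fewer cells that make a transcript and less of it per cell cannot be told apart.

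**Figure D1:**
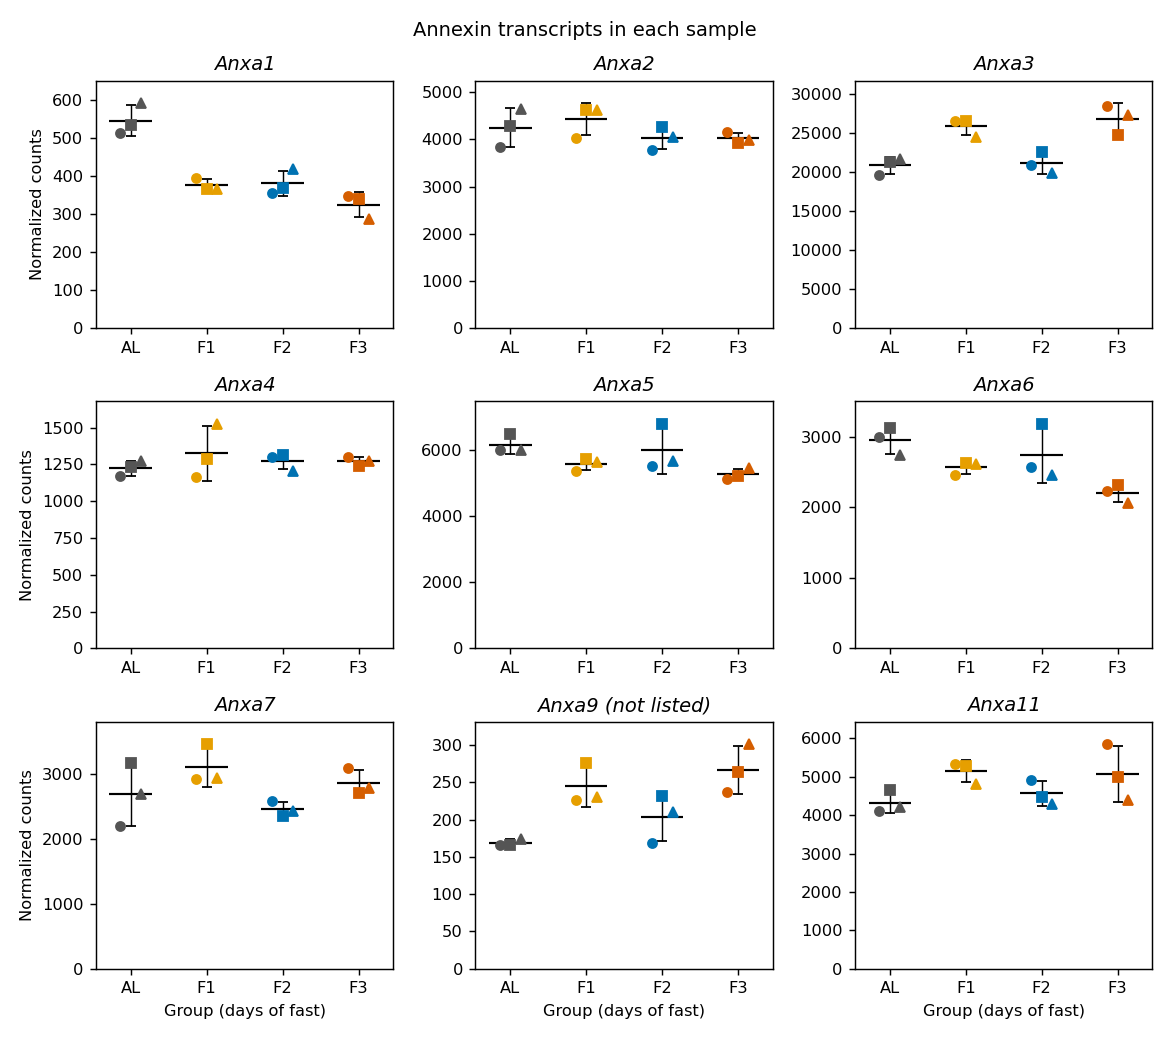
Normalized counts (vertical axes, from 0) of 9 annexins in each of the 12 samples by group (horizontal axes). Circles, squares and triangles are samples i, j and k, bars are means and whiskers are SDs (n = 3). Anxa1 falls from 545 in AL to 324 at F3, while Anxa3 is higher in F1 and F3 rats and close to AL rats at F2.

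Of the other 7 annexins, Anxa6 alone was called in the direction of Anxa1, and at F3 alone. At F2, the day of the Anxa1 value that chose the list, edgeR called 0 of the 7, DESeq2 called 0 as well, and each of the 7 overlapped AL. In edgeR 0 of the 7 had an unadjusted p under 0.05 at F2, against 1675 of all 13050 features. Their LFCs at F2 ran from -0.13 to 0.08, with a median of -0.04 against -0.01 over all features. At F1, 1 of 7 was called, and it was higher, while 2 of 7 lay above and 2 below all AL samples. At F3, 2 of 7 were called, 1 higher and 1 lower, while 1 lay above and 2 below all AL samples. The median LFC of the 7 was 0.11 at F1 and 0.06 at F3, against -0.00431 and -0.00527 over all features. The counts called at F1 and F3 stand beside backgrounds of 6.56% and 12.05%. Those that did not overlap AL stand beside 28.7% of all features at F1, 15.5% at F2 and 35.6% at F3. Nothing particular to annexins is read from such counts among 7 genes.

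Anxa6 was lower at F3. It is the largest annexin, with a duplicated core, and takes part in membrane traffic and cholesterol handling in endosomes. Its level was 2994, 3131 and 2747 normalized counts in AL, 2459, 2634 and 2609 at F1, 2578, 3182 and 2453 at F2, and 2233, 2313 and 2060 at F3. F3 samples lay below all others, F1 samples lay below AL rats, and F2 sample j was the highest of the 12. The LFC was -0.43 at F3 (SE 0.09, adjusted p 0.00948), and the call was lost only without F3 sample k (adjusted p 0.0525). At F1 the LFC was -0.20 (adjusted p 0.235) and at F2 it was -0.11 (adjusted p 0.666), or -0.23 without F2 sample j (adjusted p 0.146). From F2 to F3 the LFC was -0.31, with an adjusted p of 0.0642.

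Anxa5 had a similar order of samples and did not pass the test. It binds phosphatidylserine, the lipid exposed on dying and activated cells, and has anticoagulant activity. It stood at 5980, 6482 and 5999 normalized counts in AL, 5375, 5728 and 5638 at F1, 5511, 6783 and 5648 at F2, and 5117, 5220 and 5447 at F3. As for Anxa6, 8 of 9 fasted samples lay below all AL samples, and the exception was F2 sample j, which was the highest of the 12. The LFC was -0.14 at F1 (adjusted p 0.369), -0.04 at F2 (adjusted p 0.878) and -0.23 at F3 (SE 0.08, adjusted p 0.0977). The F3 value passed in a fit of only the 6 samples compared (adjusted p 0.0305) and without F2 sample j (adjusted p 0.0139).

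Anxa3 was higher at F1 and F3. It is a small annexin best known from neutrophil granules and from endothelial migration and tube formation. Its level was 19678, 21355 and 21735 normalized counts in AL, 26641, 26549 and 24533 at F1, 20923, 22628 and 19908 at F2, and 28563, 24732 and 27325 at F3. Every F1 and F3 sample lay above every AL and F2 sample, and AL and F2 samples overlapped. The LFC was 0.31 at F1 (SE 0.08, adjusted p 0.0438), 0.02 at F2 (SE 0.08, adjusted p 0.960) and 0.36 at F3 (SE 0.08, adjusted p 0.0127). The F1 call held in only 10 of 23 alternatives, in which its adjusted p reached 0.154, and the F3 call was lost without F3 sample i (adjusted p 0.0712).

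The fasted groups, which are separate pools of rats, also differed from each other for Anxa3. From F2 to F3 the LFC was 0.35 (SE 0.08, adjusted p 0.0296), where 5.94% of all features were called, and it was the only one of the 7 called there. From F1 to F2 it was -0.29, with an adjusted p of 0.0916 in edgeR and 0.0124 in DESeq2. In that comparison edgeR called 0 of the 7 and 1.43% of all features. Its unadjusted p was under 0.05 for 2 of the 7 and for 2252 of all 13050 features. F1 and F3 rats overlapped, with an LFC of 0.05 (95% interval -0.13 to 0.23). The joint test of the 4 groups called Anxa3 (adjusted p 0.0162) and Anxa6 (adjusted p 0.0411) among the 7, where 10.1% of all features were called.

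**Figure D2:**
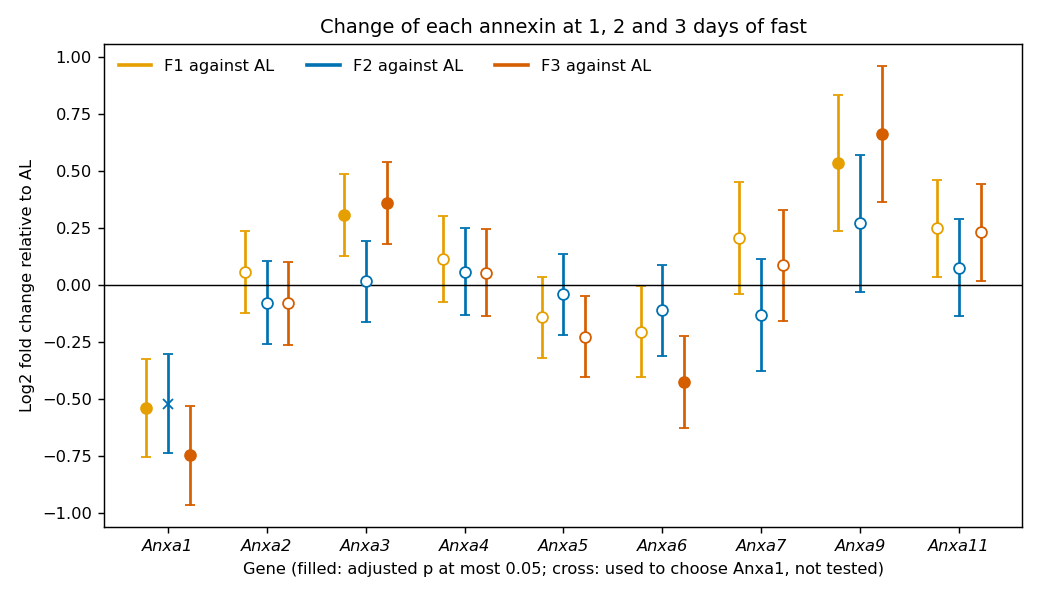
LFC relative to AL (vertical axis) of each annexin after 1, 2 and 3 days of fast. Points are estimates from 3 against 3 samples in 1 model of 12, bars are 95% intervals, filled points have an adjusted p of at most 0.05, and the cross is the comparison on which Anxa1 was chosen. Anxa1 and Anxa6 lie below 0 at F3 (-0.75 and -0.43), Anxa3 and Anxa9 above it (0.36 and 0.66).

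Anxa11, which tethers RNA granules to lysosomes and binds the penta-EF-hand protein ALG-2 through a long tail, had values like those of Anxa3 that did not pass the test. It stood at 4119, 4649 and 4223 normalized counts in AL, 5331, 5289 and 4822 at F1, 4928, 4484 and 4290 at F2, and 5847, 4990 and 4408 at F3. F1 samples lay above all AL samples, and F3 samples overlapped them because sample k was low. The LFC was 0.25 at F1 (adjusted p 0.166), 0.08 at F2 (adjusted p 0.792) and 0.23 at F3 (adjusted p 0.157).

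Anxa7, the other member with a long N-terminal tail, varied most among AL samples, at 2209, 3182 and 2699 normalized counts. It stood at 2933, 3464 and 2941 at F1, 2582, 2359 and 2439 at F2, and 3095, 2706 and 2789 at F3, and each fasted group overlapped AL rats. The LFC was 0.21 at F1 (adjusted p 0.332), -0.13 at F2 (adjusted p 0.676) and 0.09 at F3 (adjusted p 0.695). All F2 samples lay below all F1 samples, with an LFC of -0.34 that did not pass the adjustment (p 0.0101, adjusted p 0.144 in edgeR's quasi-likelihood test).

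Anxa2 and Anxa4 did not pass the test on any day. Anxa2, which pairs with S100A10 at the cell surface and helps to activate plasminogen, ranged from 3781 to 4643 normalized counts over the 12 samples. Its LFC was 0.06 at F1, -0.08 at F2 and -0.08 at F3 (adjusted p 0.753, 0.747 and 0.616), and the 95% intervals reached from -0.26 to 0.24. Anxa4, a regulator of chloride conductance and exocytosis in epithelia, ranged from 1164 to 1524. Its LFC was 0.11, 0.06 and 0.06 on the 3 days (adjusted p 0.513, 0.826 and 0.758), and the 95% intervals reached from -0.13 to 0.30. Reads matching the genome more than once had been removed, and the RefSeq table lists pseudogenes of Anxa2 and Anxa7, so that reads of these genes may have been lost in every group.

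Anxa9, an annexin with degenerate calcium sites, was low in reads and was called higher at F1 and F3. It stood at 166, 166 and 174 normalized counts in AL, 227, 276 and 230 at F1, 168, 232 and 210 at F2, and 237, 264 and 301 at F3. All F1 and F3 samples and 2 of 3 F2 samples lay above the AL samples, whose own range was narrow. The LFC was 0.54 at F1 (SE 0.14, adjusted p 0.0371), 0.27 at F2 (SE 0.14, adjusted p 0.451) and 0.66 at F3 (SE 0.14, adjusted p 0.00714). The F3 call held in all 23 alternatives and the F1 call in 14.

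**Figure D3:**
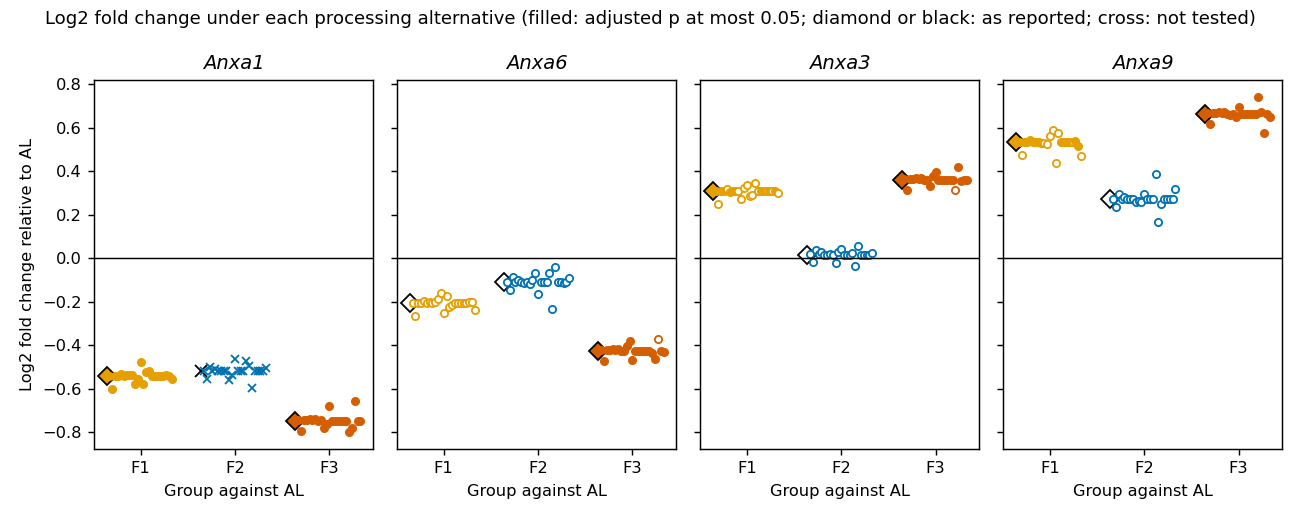
LFC relative to AL (vertical axis) of Anxa1, Anxa6, Anxa3 and Anxa9 at F1, F2 and F3 (horizontal axis) as reported and under each of 23 processing alternatives. Filled points have an adjusted p of at most 0.05, black-edged diamonds are the reported values, and crosses mark the comparison on which Anxa1 was chosen. The points of each comparison stay on 1 side of 0 apart from Anxa3 at F2, which lies between -0.04 and 0.06.

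Few other genes of annexin biology could be read, because symbols reach the identifiers only through the part of the study's gene table used here. Of 16 genes of the annexin A1 axis, meaning its receptors, the lipid mediator enzymes beside it and the proteases that release it or related proteins, 4 had an identifier. Adam17, a sheddase that frees membrane-bound cytokines and adhesion proteins, was lower on all 3 days. It stood at 6548, 6619 and 7060 normalized counts in AL, 5491, 4974 and 5244 at F1, 5474, 4803 and 5038 at F2, and 4633, 4736 and 4615 at F3, so that all fasted samples lay below all AL samples. The LFC was -0.36 at F1 (adjusted p 0.00902), -0.40 at F2 (adjusted p 0.0185) and -0.53 at F3 (adjusted p 0.000393). Adam10, Alox15 and Alox5ap were not called against AL. The formyl peptide receptors had no identifier here.

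Of 17 partners of annexins, 3 had an identifier. Ahnak, a giant scaffold that binds the Anxa2 and S100A10 complex, was higher at F3 (LFC 0.62, adjusted p 0.0333), and Capn2, a calcium-activated protease, was higher at F1 (LFC 0.40, adjusted p 0.0216) and F3 (LFC 0.51, adjusted p 0.00318). Capn1 was called on no day. Of 16 genes of membrane repair and lipid scrambling, 9 had an identifier, Capn1 and Capn2 among them. Cav1, the main coat protein of caveolae, was lower at F1 (LFC -0.40, adjusted p 0.0231) and F3 (LFC -0.69, adjusted p 0.000396), and Cav2 was lower at F3 (LFC -0.41, adjusted p 0.0149).

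Of 24 genes known to respond to glucocorticoids, 3 had an identifier. Angptl4, an inhibitor of lipoprotein lipase that responds to fatty acids as well, was higher at F1 (LFC 0.49, adjusted p 0.0114) and F3 (LFC 0.58, adjusted p 0.00213), while Bcl6 and Arrdc2 were not called. Of 15 genes of leukocyte adhesion and inflammation, 2 had an identifier. Casp1, the protease of the inflammasome, was lower at F1 (LFC -0.78, adjusted p 0.00211) and F3 (LFC -0.86, adjusted p 0.000497), and Ccl2 was not called.

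The genes whose levels over the 12 samples most resembled each called annexin were looked for among 1259 genes with a symbol and a mean of at least 100 normalized counts. The symbols at hand begin mostly with A to C, so most genes with later symbols could not enter this search. The correlations share the 4 group means and the libraries and are descriptions. For Anxa1 the most alike genes were Actr3 (Pearson's r 0.931, Spearman's rho 0.923), Arhgef15 (0.931 and 0.832) and Adam17 (0.928 and 0.853). For Anxa3 they were Capn2 (r 0.932, rho 0.874), Agpat4 (0.929 and 0.888) and Cant1 (0.926 and 0.860). For Anxa6 they were Acvrl1 (r 0.932, rho 0.930), Akirin1 (0.930 and 0.888) and Atp6v0b (0.915 and 0.916), and for Anxa9 they were Anapc2 (r 0.914, rho 0.937), Ccdc71 (0.882 and 0.755) and Cars (0.881 and 0.846).

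The labelled cell type was checked against markers. The 7 of 15 endothelial markers with an identifier summed to 746447 to 792254 normalized counts in AL. The sums were 824923 to 859568 at F1, 836575 to 902794 at F2 and 836070 to 866314 at F3. All fasted sums lay above all AL sums, so that this sum did not stay level across groups. Slc2a1 alone, 1 of the 7, had a mean of 283813 in AL and 406911 at F3. Pecam1, which encodes CD31, ranged from 31655 to 38792. It stood at 31655 to 35586 in AL and at 35876 to 38792 at F1. The 6 of 14 microglial markers summed to 61.7 to 96.7 in AL, 56.7 to 82.3 at F1, 67.2 to 120 at F2 and 57.6 to 134 at F3, which overlap. Of the pericyte list, Abcc9 and Anpep summed to 1762 to 4161 in AL, 1846 to 2098 at F1, 2186 to 4509 at F2 and 1473 to 4143 at F3. Acta2, the 1 smooth muscle marker read, stood at 236 to 366 at F2 against 130 to 211 in AL (LFC 0.83, adjusted p 0.278), and Apod of fibroblasts at 393 to 473 against 297 to 414. Aldoc, the 1 astrocyte marker read, stood at 1545 to 1588 at F3 against 1825 to 2155 in AL. Alas2 of red cells stayed at or under 110 normalized counts and Aqp1 of ependyma at or under 79.2. No marker of these non-endothelial lists was called against AL. Of the 7 endothelial markers, 1 was called higher and 1 lower at F1 and 1 higher and 2 lower at F3. Slc2a1 was higher (LFC 0.43 at F1 and 0.52 at F3) and Slco1a4 lower (-0.36 and -0.43). Slco1c1 was called lower at F3 alone (-0.31). Of 2 arterial or venous markers, Slc38a5 was called lower at F1 and F3. Over all features 6.56% were called at F1 and 12.05% at F3. The cause of these marker changes was not tested. With the mean of Abcc9 and Anpep as a covariate, Anxa1 was called at F1 (adjusted p 0.0108) and F3 (adjusted p 0.000524). Both values use the AL samples that took part in the choice of Anxa1, and are not independent of it. Under the same covariate the F1 values of Anxa3 (LFC 0.30, adjusted p 0.0848) and Anxa9 (LFC 0.47, adjusted p 0.0826) no longer passed the threshold, against LFCs of 0.31 and 0.54 without it. No marker of leukocytes, neurons or oligodendrocytes had an identifier, and their part in these values was not tested.

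**Figure D4:**
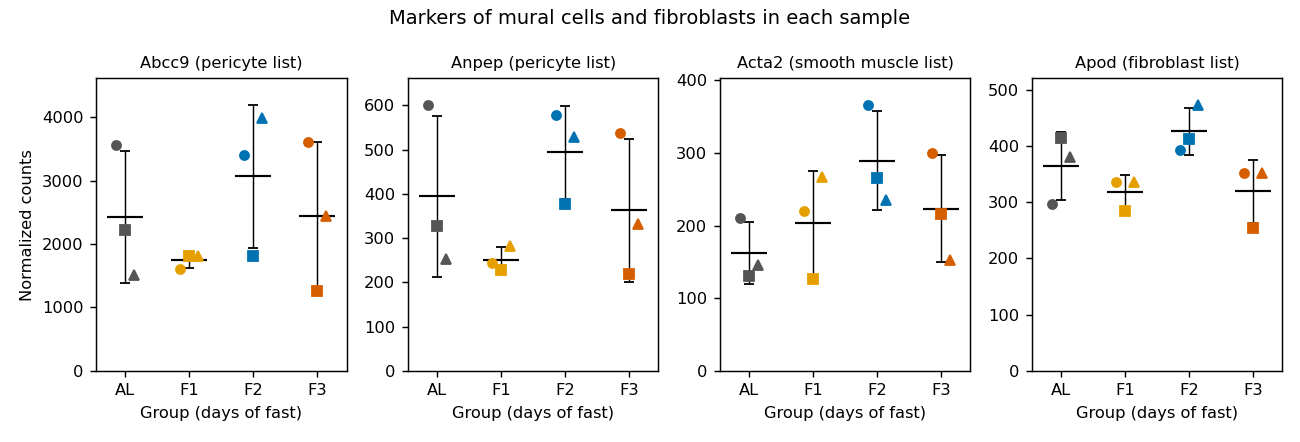
Normalized counts (vertical axes, from 0) of Abcc9, Anpep, Acta2 and Apod, markers of pericytes, smooth muscle and fibroblasts, in each sample by group. Symbols, bars and whiskers are as in the plot of annexin counts. The groups overlap AL rats apart from Acta2 at F2, and the means are highest at F2 for all 4 genes.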

How the data were processed

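Reads were trimmed and filtered by the authors and mapped by STAR to Ensembl's rat genome (Rnor_6.0 per the labels). The authors dropped multi-matching reads and deposited raw counts on exons from HTSeq 0.5.3. Libraries were strand-specific, but the strand setting of the counting is not given in the sources used here, so that antisense genes may share reads. Counts were summed over the 4 technical replicates per sample. A run of F1 sample k, technical replicate d, has conflicting labels. Its counts differed from replicates a, b and c by no more than sampling noise (chi-square per degree of freedom 1.00), and 1 alternative leaves it out.

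Features read at least 1 time in all 12 samples were tested with edgeR 4.0.16 in R 4.3.3 (TMM, robust quasi-likelihood test, 1 model of 4 group means, two-sided), with Benjamini-Hochberg adjustment over 13050 features and a threshold of 0.05. DESeq2, the study's tool, was run as an alternative in version 1.42.0. The edgeR test was also run on simulated counts, with changes larger than those of most annexins and an equal dispersion for all genes. That run does not cover smaller changes or a sample that departs from its group. Symbols came from the study's supplementary tables, of which the copy used here is cut short (2043 of 13050 features named), and whose fold change and p-value columns were not used. Named genes are the annexins, up to 4 called members of each gene list (with the other members named where few), and the 3 genes most like each called annexin. The members and lists were chosen with earlier results of these data known. Other genes were tested and are not described.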

Additional observations from a re-analysis of the deposited data

Results flagged for a closer look

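Anxa3 differed between separate pools of rats, those fasted for 2 days and those fasted for 3. Its LFC relative to AL rats was 0.36 at F3 and 0.02 at F2, and the test of the difference itself, F3 against F2, gave 0.35 (SE 0.08, edgeR adjusted p 0.0296). All 3 F3 samples lay above all 3 F2 samples. The call was lost with only the 6 samples compared, with the pericyte covariate and without F2 sample i, F2 sample k, F3 sample i or F3 sample k, with adjusted p up to 0.139.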

How the results depend on the processing

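The F1 count of 1 called among the 7 other annexins fell to 0 with total counts, no filter, the replicate block, the pericyte covariate or an adjusted p of at most 0.01, and ranged from 0 to 1 when 1 sample was left out. The F3 count of 2 was 1 at 0.01 and 1 to 3 with a sample left out. From F1 to F2, DESeq2 called 1 where edgeR called 0. From F2 to F3, where 1 was called, DESeq2 and the replicate block called 2, the 6-sample fit, the covariate and 0.01 called 0, and leaving out a sample gave 0 to 1. The joint count of 2 was 0 at 0.01 and 0 to 2 with a sample left out. The cause of these shifts was not tested. Over all features at F2, 112 were called, against 359 with DESeq2 and 0 in the 6-sample fit.

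Some of the LFCs printed for each annexin changed sign under an alternative, the largest in size being that of Anxa7 at F2 (-0.13 as reported). With total counts, Anxa2 at F1 was -0.00257 and Anxa3 at F2 was -0.0194. With a sample left out, Anxa2 at F1 ran from -0.00557 to 0.127, Anxa3 at F2 from -0.0354 to 0.0576, Anxa5 at F2 from -0.141 to 0.0145, Anxa7 at F2 from -0.253 to 0.00405 and at F3 from -0.0267 to 0.223, and, for F2 against F1, Anxa1 from -0.0550 to 0.0678 and Anxa6 from -0.0295 to 0.166.

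Whether the letters i, j and k pair the samples was not tested. The correlations of deviations in 18 same-letter pairs ran from -0.0172 to 0.139. Most lay above 0, 3 were over 0.1, and 5 of 12 samples correlated best with their own letter. Each sample was compared with the samples of the other groups, which carry all 3 letters, so some such matches arise without pairing. With the replicate block, the edgeR adjusted p of Anxa3 at F1 was 0.0651, against 0.0438 without it. That of Anxa6 for F3 against F2 was 0.0412, against 0.0642. Levels per kilobase were not run, since no transcript lengths were at hand. Anxa1 rests on 289 to 556 reads a sample and 3 samples a group, and Anxa9 on fewer reads.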
